A study of Mus musculus with 12 samples.

Results

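The 9 genes described here encode the enzymes and the transporter through which an inflammatory macrophage makes nitric oxide, uses arginine, and makes itaconate and prostaglandins. They were taken by name, as Nos2, Arg1, Arg2, Ass1, Gch1, Slc7a2, Acod1, Sod2 and Ptgs2, and all 9 were among the 24552 gene symbols of the count table. Mouse bone marrow-derived macrophages were grown for 6 days with M-CSF at 10 ng/ml, and their polyadenylated RNA was sequenced in 4 groups of 3 biological replicates. M1-like cells received DMSO as vehicle, or 50 nM ISRIB, 1 h ahead of stimulation and then LPS (10 ng/ml) and IFN-γ (25 ng/ml) for 16 h while the vehicle or ISRIB was kept on. M0 cells carried the same vehicle or ISRIB labels, and what they were given during those hours is not given in the sources used here. ISRIB is a small molecule that blocks the integrated stress response, and the study's title concerns that response in macrophage inflammation. The strain, sex and age of the mice are not given in the sources used here, nor whether replicates came from separate animals, so p-values measure the spread between these samples, which may be in part technical.

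In macrophages activated by bacterial lipopolysaccharide and interferon-γ, inducible nitric oxide synthase (Nos2) turns arginine into nitric oxide and citrulline. Arginine enters through the cationic amino acid transporter CAT2 (Slc7a2), is rebuilt from citrulline by a pathway that starts with argininosuccinate synthase (Ass1), and is removed by the arginases, the cytosolic Arg1 and the mitochondrial Arg2. GTP cyclohydrolase (Gch1) starts the synthesis of tetrahydrobiopterin, a cofactor that Nos2 needs. Acod1 makes itaconate from an intermediate of the citric acid cycle, Sod2 removes superoxide in mitochondria, and Ptgs2 (cyclooxygenase-2) starts prostaglandin synthesis. Nos2, Acod1 and Ptgs2 are known as genes switched on in M1-like cells, and Arg1 as a marker of the alternative, M2-like state.

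The RefSeq promoter table (GRCm38.p6) matched 5 of the 9 members. Of these, Acod1, Sod2 and Ptgs2 had enough counts to be tested, and their start regions are shown because all 3 rose together in M1 cells. Each runs from 250 bases before the start site to 50 bases from it on, 5′ to 3′, and capitals mark matches to the motifs searched. The regions are chr14:103046762-103047061 (plus strand) for Acod1, chr17:13007589-13007888 (plus strand) for Sod2 and chr1:150099781-150100080 (plus strand) for Ptgs2.
Acod1: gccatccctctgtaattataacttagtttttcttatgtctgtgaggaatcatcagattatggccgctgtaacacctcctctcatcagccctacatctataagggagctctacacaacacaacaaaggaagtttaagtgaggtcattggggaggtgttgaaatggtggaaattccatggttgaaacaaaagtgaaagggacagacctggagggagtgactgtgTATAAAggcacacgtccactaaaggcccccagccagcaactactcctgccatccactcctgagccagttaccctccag
Sod2: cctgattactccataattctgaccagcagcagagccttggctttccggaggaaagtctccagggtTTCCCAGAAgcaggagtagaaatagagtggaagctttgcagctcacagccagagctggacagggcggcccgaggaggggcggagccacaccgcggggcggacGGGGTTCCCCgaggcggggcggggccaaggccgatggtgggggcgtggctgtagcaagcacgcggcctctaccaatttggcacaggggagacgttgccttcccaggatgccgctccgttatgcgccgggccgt
Ptgs2: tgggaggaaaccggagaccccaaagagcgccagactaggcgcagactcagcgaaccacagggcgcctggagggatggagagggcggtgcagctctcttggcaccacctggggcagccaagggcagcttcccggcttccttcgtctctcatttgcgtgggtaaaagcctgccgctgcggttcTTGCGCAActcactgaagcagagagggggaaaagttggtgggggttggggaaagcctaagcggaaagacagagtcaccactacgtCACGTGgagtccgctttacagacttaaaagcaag

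The motifs were searched on both strands, and none of the matches shown overlaps another. The 10-base NF-κB consensus matched GGGGTTCCCC in the Sod2 region, from 83 to 74 bases upstream of the start, and 4.51% of the 32851 promoter windows of the same length held a match. The STAT motif TTCNNNGAA matched once in Sod2, 185 to 177 bases upstream, against 8.30% of all windows. The C/EBP motif TTGCNNAA lay 69 to 62 bases upstream of Ptgs2 (10.8% of windows) and the E-box CACGTG 17 to 22 bases into the Ptgs2 transcript (7.15%). Acod1 held only the TATA motif TATAAA, 28 to 23 bases upstream (13.6% of windows). No match to the interferon-stimulated response element (3.44% of windows) or to the C/EBP-ATF motif TGATGNAAT (0.965%) lay in these 3 windows. Such matches describe the letters only.

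Libraries held 439976 to 514037 counts each, where 1 count stood for 1.79 to 2.57 CPM, the count scaled to library size by TMM, and 3 counts, the floor used here for a share of 0, were 0.000584% to 0.000682% of a library. The 9 genes together held 0.00664% to 0.0594% of a library. The kit was strand-specific, but the strand setting used in counting is not given in the sources used here, and 24.1% of the 24030 symbols matched to the annotation share exonic bases with an opposite-strand gene. These held 91.2% to 93.1% of the matched counts. Of the members, Arg2 and Slc7a2 have such an overlap, and the other 7 have none. Values are therefore counts assigned to a symbol, and the part of the strand setting in them was not tested. All 13 macrophage markers looked up had counts, and 10 of them had enough to be tested. The 13 summed to 351 to 637 counts per library in M0 and 237 to 462 in M1. Lyz2 and Mpeg1 held the most, at 153 and 119 counts on average. Markers of T cells, B cells, neutrophils, mast cells, stromal cells and erythroid cells summed to at most 13 counts in any library. The 5 dendritic cell markers summed to 20 to 66 counts in M0 and 325 to 434 in M1, nearly all of them on Xcr1 and Clec9a, while Flt3 and Zbtb46 were at 0. The part of these marker differences in the changes below was not tested.

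**Figure D1:**
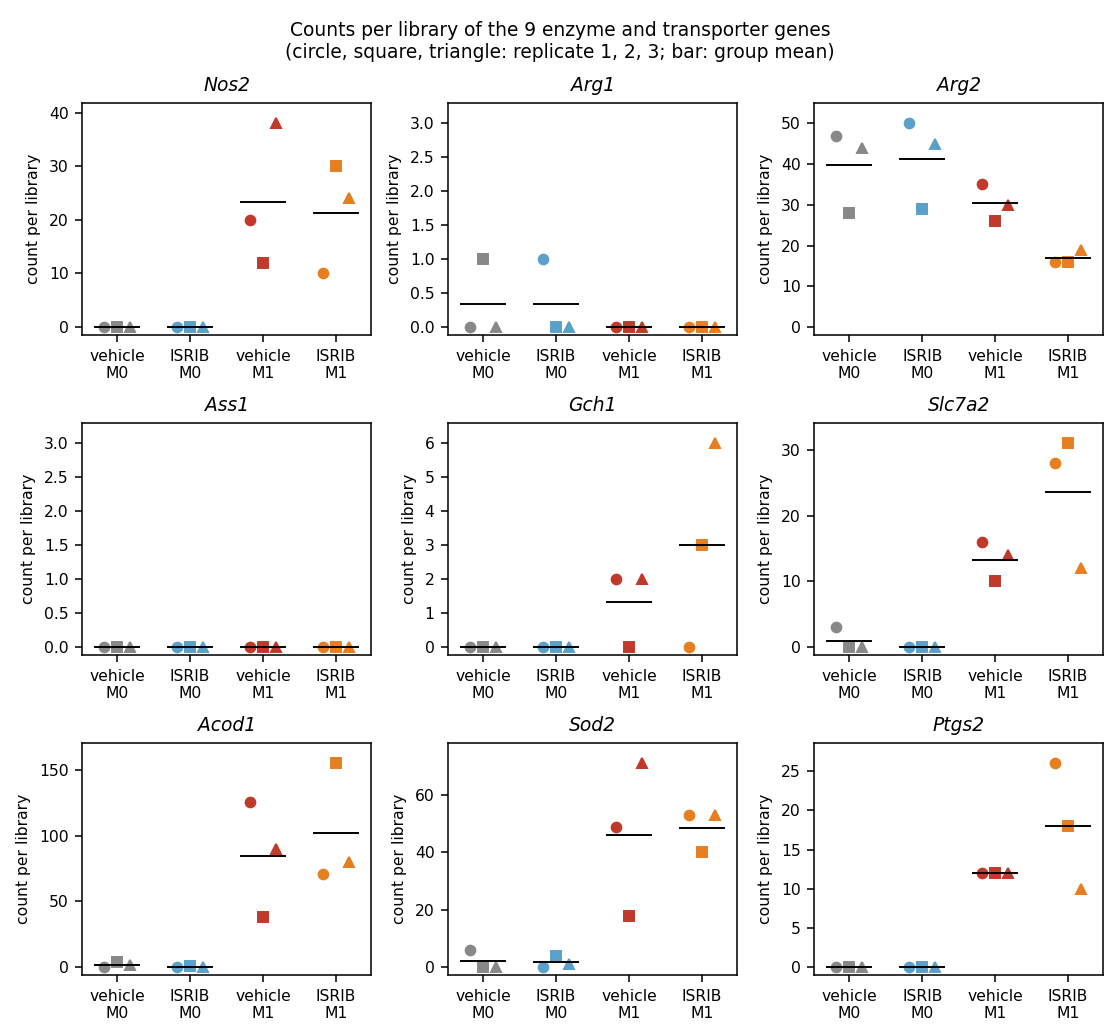
Counts per library (linear axes, each with its own scale) for the 9 genes in the 4 groups; points are the 3 replicates and bars are group means. Nos2, Slc7a2, Acod1, Sod2 and Ptgs2 sit at or near 0 in M0 and reach 10 or more counts in all 6 M1 libraries, while Arg2 is counted in every library, and Arg1, Ass1 and Gch1 have at most 6 counts.

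Of the 9 genes, 5 had nearly all their counts in M1 cells, 1 was counted in every library, and 3 were too rare to test. The genes that rose were Nos2, Slc7a2, Acod1, Sod2 and Ptgs2, in vehicle and in ISRIB cells. With edgeR, 24.3% of the 2356 tested genes were called higher in vehicle M1 than in vehicle M0 and 23.9% in ISRIB M1 than in ISRIB M0. Each of the 5 reached the minimum of 10 counts in all 6 M1 libraries and in 0 of the 6 M0 libraries. They passed the filter on low counts only through the M1 cells, so that their number is not read against these shares. In bulk RNA, fewer cells of a type and less RNA per cell cannot be told apart.

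Nos2, on chr11:78920787-78960254 (plus strand, mm10), had 20, 12 and 38 counts in replicates 1, 2 and 3 of vehicle M1, and those of ISRIB M1 held 10, 30 and 24. It had 0 counts in all 6 M0 libraries, so no M0 library overlapped an M1 library. The level was 57.4 ± 30.9 CPM (SD, n = 3) in vehicle M1 and 49.5 ± 22.0 in ISRIB M1. Against the floor of 3 counts per library in M0, these means were at least 10.1-fold higher in vehicle and 8.58-fold in ISRIB. Such folds of group means leave out the spread in M1, where the lowest library was at 25.0 CPM. Adjusted p-values (edgeR) were 1.62e-05 and 2.66e-05. On the authors' log2 scale Nos2 was 4.71 ± 0.76 in vehicle M1 and 4.53 ± 0.70 in ISRIB M1, and 0 in M0.

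Slc7a2, the arginine transporter, lies on chr8:40862396-40922308 (plus strand). It shares 635 exonic bases with Gm26584 on the opposite strand, a symbol absent from the count table. It had 16, 10 and 14 counts in vehicle M1, 28, 31 and 12 in ISRIB M1, 3, 0 and 0 in vehicle M0, and 0 in each ISRIB M0 library. Every M1 library was above every M0 library. The ratio of vehicle M1 to M0 was 17.6 with a 95% counting interval of 5.61 to 89.1, since the vehicle M0 libraries held 3 counts in all, each of them in replicate 1. By its group mean against the M0 floor, ISRIB M1 was at least 9.68-fold higher than ISRIB M0. Adjusted p-values (edgeR) were 0.00203 and 3.74e-05.

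Acod1, the itaconate-producing enzyme, had the most counts of the 9. It lies on chr14:103046977-103056573 (plus strand) and overlaps no other gene's exons. Vehicle M1 held 126, 38 and 90 counts and ISRIB M1 held 71, 155 and 80, against 0, 4 and 2 in vehicle M0 and 0, 1 and 0 in ISRIB M0. The highest M0 library, at 7.16 CPM, was far below the lowest M1 library, at 97.7 CPM. Acod1 rose by a log2 fold change of 5.71 ± 0.59 (SE) in vehicle, with an adjusted p (edgeR) of 1.06e-08. In ISRIB cells the ratio was 376 with a 95% counting interval of 67.0 to 14907, because ISRIB M0 held a single count, and the adjusted p (edgeR) was 1.24e-09.

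Sod2, the mitochondrial superoxide dismutase on chr17:13006846-13040063 (plus strand), had 49, 18 and 71 counts with vehicle in M1, where ISRIB libraries had 53, 40 and 53. It had 6, 0 and 0 in vehicle M0 and 0, 4 and 1 in ISRIB M0. The groups did not overlap, and the log2 fold changes were 4.82 ± 0.76 (SE) in vehicle and 5.07 ± 0.78 in ISRIB, with adjusted p-values (edgeR) of 9.51e-06 and 6.58e-06. For genes with so few M0 counts the fitted size rested on single M0 libraries. Without replicate 1 of vehicle M0 the vehicle log2 fold change was 8.72 for Sod2 and 6.95 for Slc7a2, and without replicate 2 of vehicle M0 it was 6.60 for Acod1. Without replicate 2 of ISRIB M0 the ISRIB value was 6.54 for Sod2 and 9.79 for Acod1.

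Ptgs2, on chr1:150100031-150108227 (plus strand), had 12 counts in each of the 3 vehicle M1 libraries and 26, 18 and 10 in ISRIB M1, with 0 in all M0 libraries. Against the M0 floor the increase of the group mean was at least 5.28-fold in vehicle and at least 7.44-fold with ISRIB. The lowest M1 library was at 23.4 CPM. Adjusted p-values (edgeR) were 0.000292 and 0.000122. All 5 genes stayed past the threshold in the same direction in each of the 295 values recomputed under other settings, over vehicle, ISRIB and their average, with the largest adjusted p at 0.0108 (for Slc7a2 in vehicle, without replicate 2 of vehicle M0). These settings reuse the same counts, in which the 5 genes passed the filter only through M1 cells. The values therefore show how far the calls depend on the setting and add no support for the rise. Across all tested genes 19.7% had all 6 M1 libraries above all 6 M0 libraries.

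Levels are set side by side per kilobase of exon. They are counts assigned to a symbol, and for Arg2 and Slc7a2, which share exonic bases with opposite-strand genes, the part of those genes in the level was not tested. In vehicle M1 the level was 80.0 ± 41.6 CPM per kilobase for Acod1 (SD, n = 3), 52.9 ± 7.6 for Arg2, 13.0 ± 7.0 for Nos2, 11.3 ± 6.3 for Sod2, 6.53 ± 0.22 for Ptgs2 and 3.63 ± 0.79 for Slc7a2. The levels of Acod1 and Arg2 lay within their SDs of each other, as did those of Nos2, Sod2 and Ptgs2. In ISRIB M1 the levels were 90.6 ± 36.5 for Acod1, 28.1 ± 3.0 for Arg2, 11.5 ± 2.3 for Sod2, 11.2 ± 5.0 for Nos2, 9.38 ± 4.56 for Ptgs2 and 6.12 ± 2.64 for Slc7a2. Acod1 stood first in both, and Nos2 and Sod2 changed places with a gap far inside their SDs.

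Arg2, the mitochondrial arginase, was the 1 tested member that did not rise in M1. It lies on chr12:79130777-79156301 (plus strand). It shares 285 exonic bases with Vti1b, a vesicle fusion gene, and 116 with Gm48780, both on the opposite strand. Gm48780 is absent from the count table. Arg2 had 47, 28 and 44 counts in vehicle M0 and 50, 29 and 45 in ISRIB M0. It had 35, 26 and 30 for vehicle in M1, and 16, 16 and 19 for ISRIB in M1. In CPM the group levels were 75.5 ± 22.0 (SD, n = 3), 80.3 ± 25.8, 75.5 ± 10.8 and 40.1 ± 4.3 in that order, so the first 3 groups overlapped and ISRIB M1 lay below all 9 other libraries. Replicate 2 was the lowest library in CPM in each of the 4 groups. Of all tested genes, 2.5% had ISRIB M1 below every other library.

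From vehicle M0 to vehicle M1 Arg2 differed by 0.0043 ± 0.37 (SE) on the log2 scale, and the adjusted p (edgeR) was 0.996. Between ISRIB M1 and ISRIB M0 the log2 fold change was -0.99 ± 0.39 with an adjusted p (edgeR) of 0.0421, where 20.9% of tested genes were called lower and 44.8% either way. That call ended in all 8 other settings run on all replicates, with adjusted p-values (edgeR, DESeq2 and limma) of 0.0506 to 0.162, among them the replicate block at 0.0506. It also ended in 5 of the 12 fits that left out 1 library. These were the fits without replicate 1 (0.181) or 3 (0.0972) of ISRIB M0, and without replicate 1 (0.0831), 2 (0.107) or 3 (0.0636) of ISRIB M1.

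**Figure D2:**
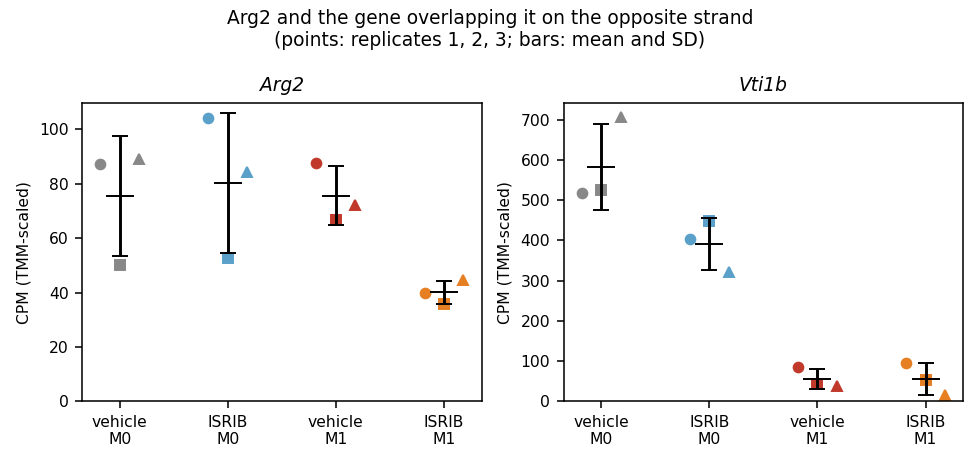
TMM-scaled CPM of Arg2 and of Vti1b, which overlaps it on the opposite strand, in the 4 groups; points are replicates, and bars are the mean and SD. Arg2 is lowest in ISRIB M1, at 40.1 CPM, and overlaps among the other 3 groups, while Vti1b is low in both M1 groups.

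Counts assigned to Vti1b did not follow those of Arg2. Vti1b had 582.8 ± 107.8 CPM (SD, n = 3) in vehicle M0, 391.7 ± 64.4 in ISRIB M0, 55.8 ± 25.6 in vehicle M1 and 55.1 ± 39.3 in ISRIB M1. It fell in M1 with log2 fold changes of -3.38 ± 0.34 (SE) in vehicle and -2.84 ± 0.34 in ISRIB, with adjusted p-values (edgeR) of 6.54e-09 and 1.28e-07. Between ISRIB M1 and vehicle M1 Vti1b had a log2 fold change of -0.03 ± 0.40. The counts do not show from which strand's gene the reads in the shared bases came.

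Arg1, Gch1 and Ass1 were too rare to test. Arg1, the cytosolic arginase on chr10:24915221-24927484 (minus strand), had 1 count in replicate 2 of vehicle M0, 1 in replicate 1 of ISRIB M0 and 0 in the other 10 libraries, all 6 M1 libraries among them. Ass1, on chr2:31470207-31520672 (plus strand), had 0 counts in all 12 libraries, which allows a share of up to 0.000682% in the shallowest. Differences of a few counts between groups were not detectable for either at this depth.

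Gch1, on chr14:47153895-47189413 (minus strand), was at 0 throughout M0. Replicates 1, 2 and 3 held 2, 0 and 2 counts with vehicle and 0, 3 and 6 with ISRIB. When genes were tested without a filter on low counts (10978 genes), Gch1 had an adjusted p (edgeR) of 0.456 for M1 against M0 in vehicle, 0.308 in ISRIB and 0.0718 with both averaged, so it was not called. Arg1 had adjusted p-values (edgeR) of 0.654, 0.641 and 0.513 in the same fits.

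No member passed the test between ISRIB and vehicle. Between ISRIB M1 and vehicle M1, 0 of the 6 tested members and 0% of the 2356 tested genes passed (edgeR), with 134 genes at an unadjusted p under 0.05. DESeq2 and limma-voom also called 0 genes there. In M0, 0% passed in edgeR, with 143 genes at an unadjusted p under 0.05, against 3 genes with DESeq2 and 1 with limma-voom, none of them a member.

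Arg2 had the largest fitted ISRIB difference of the 6 tested members in M1. On the log2 scale it was -0.91 ± 0.40 (SE, 95% interval -1.73 to -0.09), or 1.88-fold lower. All 3 ISRIB M1 libraries, at 35.9 to 44.5 CPM, lay below the 3 vehicle M1 libraries, at 66.8 to 87.6 CPM, where 11.6% of tested genes had groups that did not overlap in either direction. By edgeR, fitted over all tested genes, the unadjusted p was 0.0314 and the adjusted p 0.806, so it did not pass. In M0 the same difference was 0.09 ± 0.37 (95% interval -0.67 to 0.85), and no member's groups were apart there, against 11.3% of tested genes. The interaction, which asks whether ISRIB acted differently in M1 and M0, was -0.998 ± 0.543 for Arg2, with an adjusted p (edgeR) of 0.731, where 0% of tested genes were called and 167 had an unadjusted p under 0.05.

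For the 5 genes that rose with polarization, the groups given ISRIB and vehicle overlapped in M1. The log2 fold changes for ISRIB M1 against vehicle M1 were -0.21 (95% interval -1.56 to 1.13) for Nos2, 0.75 (-0.78 to 2.27) for Slc7a2 and 0.18 (-0.60 to 0.96) for Acod1. They were 0.02 (-1.09 to 1.14) for Sod2 and 0.52 (-1.10 to 2.13) for Ptgs2. Adjusted p-values (edgeR) ran from 0.966 to 0.996. These intervals include changes of more than 2-fold for Nos2, Slc7a2, Sod2 and Ptgs2, so differences of that size are within the error, and they do not show that ISRIB left the genes as they were.

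**Figure D3:**
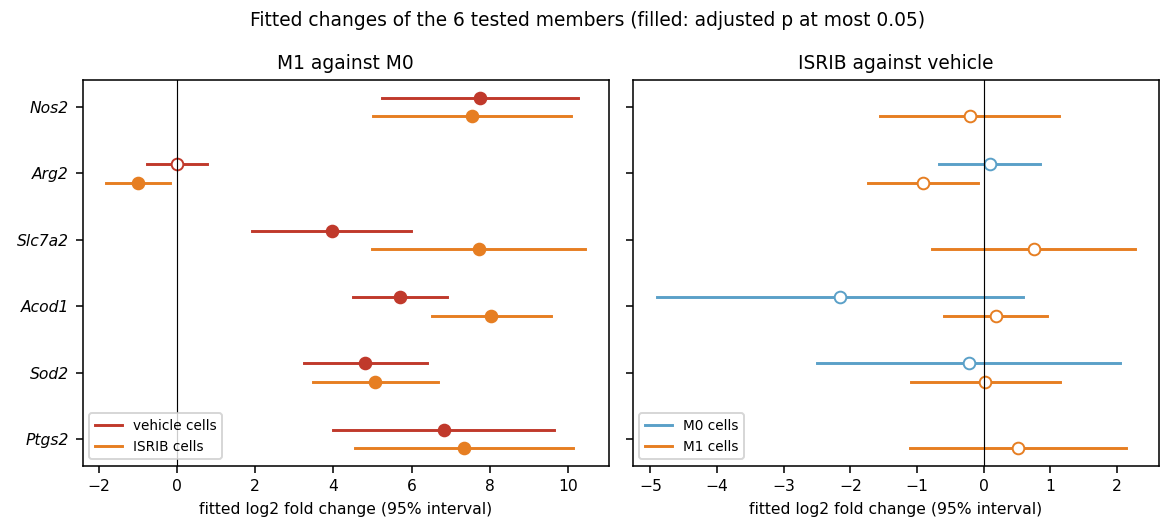
Fitted log2 fold changes of the 6 tested genes with 95% intervals, for M1 against M0 in vehicle and in ISRIB cells (left) and for ISRIB against vehicle in M0 and in M1 cells (right); filled points passed an adjusted p of 0.05. Increases of Nos2 and Ptgs2, and of Slc7a2 in ISRIB, are fitted against 0 counts in M0 and depend on the fit, and no M0 value is drawn where both groups were at or under 3 counts per library.

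Replicates within M1 spread widely. In vehicle M1, replicate 2 was the lowest library for 4 of the 5 risen genes in CPM, the exception being Ptgs2. Acod1 there was 97.7 CPM, against 316 and 216 in replicates 1 and 3, and Sod2 was 46.3 CPM against 122.7 and 170.7. In ISRIB M1 no replicate was lowest for more than 2 of the 5, and Acod1 was highest in replicate 2, at 348 CPM. Without replicate 2 of vehicle M1 the ISRIB differences in M1 turned to -0.16 for Acod1 and -0.35 for Sod2 on the log2 scale. That library's mean correlation with the others of its group over all tested genes was 0.931, against a range of 0.931 to 0.947 over the 12 libraries.

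Acod1 and Sod2 were the only other members with a count above the floor in an M0 library. Acod1 had a log2 fold change of -2.16 (95% interval -4.91 to 0.60) for ISRIB against vehicle in M0, and Sod2 one of -0.23 (-2.50 to 2.04), from at most 6 counts in a library. Their interaction values were 2.34 ± 1.39 (SE) and 0.25 ± 1.22, with adjusted p-values (edgeR) of 0.754 and 0.991. Averaged over M0 and M1, ISRIB against vehicle gave -0.41 ± 0.27 for Arg2, -0.99 ± 0.69 for Acod1 and -0.10 ± 0.60 for Sod2, none of them called, with 0% of tested genes called and 146 at an unadjusted p under 0.05.

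Genes whose pattern over the 12 libraries was most like each member's were looked up among tested genes averaging 10 counts or more. The measure was Pearson's r of log2 CPM, given as a description, since all the libraries share the split into M0 and M1. For Nos2 these were Saa3 (r = 0.987), an acute-phase protein, Cmpk2 (0.987), an interferon-stimulated kinase, and the chemokine Ccl5 (0.986). For Acod1 they were the interferon-induced GTPase Gbp2 (0.987), Asph (0.987), which overlaps Clvs1 on the opposite strand, and again Ccl5 (0.985). The nearest to Ptgs2 was Zdhhc6 (0.995), whose exons overlap Acsl5 on the opposite strand, followed by Tor1aip2 (0.988) and Ogfr (0.987). The nearest to Slc7a2 was Crbn (0.978), which overlaps Trnt1 on the opposite strand, before 4921511I17Rik (0.977) and Cd38 (0.975). The exons of 4921511I17Rik overlap Fam49a on the opposite strand. Overlaps are not given for every gene named here. Sod2 was nearest to Kansl1l (0.979), 4921511I17Rik (0.972) and Ghdc (0.967). Arg2 had no neighbour as close, with Msmp (0.859), Raver2 (0.795) and Ssb (0.788).

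The related genes of the same pathways were mostly too rare to test. Of 21 genes for arginine supply and Nos2 cofactors outside the members, 4 were tested, and in M1 against M0 averaged over vehicle and ISRIB 2 rose and 1 fell, where 29.9% of all tested genes were called higher, 27.9% lower and 57.9% either way. Slc7a7, a transporter that exports arginine from cells, fell from 201.2 ± 9.7 to 36.5 ± 16.1 CPM (SD, n = 3) in vehicle, and the averaged log2 change was -2.43 ± 0.23 (SE), with 1.14e-09 as its adjusted p (edgeR). Cyb5r3, a reductase, rose by 0.42 ± 0.14 on the same scale, with an adjusted p (edgeR) of 0.0137. Slc7a7 overlaps Oxa1l on the opposite strand. The median log2 fold change of the 4 was 0.66, against -0.01 over all tested genes.

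Of 21 genes leading from arginine to urea, proline and polyamines, only Dhps was tested, and it was not called, with an averaged log2 fold change of -0.21 ± 0.25 (SE). Of 32 citric acid cycle genes 2 were tested, and 1 fell, against 27.9% of all tested genes called lower and 57.9% called either way. Pdha1, a subunit of pyruvate dehydrogenase that overlaps Map3k15 on the opposite strand, fell by 1.12 ± 0.26 on the log2 scale with an adjusted p (edgeR) of 0.000627. Of 31 prostaglandin and leukotriene genes 2 were tested, with a median of -0.38. Ptger1, a prostaglandin E2 receptor, fell by 0.34 ± 0.06 with an adjusted p (edgeR) of 4.14e-05, and the prostacyclin receptor Ptgir was at -0.43 ± 0.21 and not called. Ptger1 had 5541 counts per library on average.

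Genes that make or remove superoxide and peroxide, the company of Sod2, were better covered. Of 29, 13 were tested, and in the averaged comparison 8 rose, 1 fell and 4 were not called, against 29.9% of all tested genes called higher and 27.9% lower. The median log2 fold change was 1.60, against -0.01 over all tested genes. Among those that rose, Rac2 and Txn1 were at 0 in M0, and Srxn1 and Hmox1 held at most 17 counts summed over an M0 group. Such genes passed the filter on low counts only through M1 cells, so their rise was in part built into the selection. The number that rose and the median are therefore not read against all tested genes. Hmox1, a stress-induced haem oxygenase, rose from 4.33 ± 4.48 to 80.5 ± 39.5 CPM (SD, n = 3) in vehicle and from 10.8 ± 3.6 to 98.8 ± 42.8 in ISRIB, with an averaged adjusted p (edgeR) of 1.76e-07. Rac2, a GTPase of the NADPH oxidase, was at 0 throughout M0 and rose at least 4.22-fold with vehicle and at least 3.53-fold with ISRIB. Thioredoxin (Txn1), likewise at 0 in M0, was at least 2.08-fold higher with vehicle, and with ISRIB the increase was at least 5.35-fold. These bounds compare group means with the floor, and Txn1 spread widely. It stood at 11.8 ± 12.6 CPM (SD, n = 3) in vehicle M1 and 30.9 ± 25.6 in ISRIB M1. Srxn1, which repairs oxidised peroxiredoxins, rose with a vehicle ratio of 23.8 (95% counting interval 6.13 to 204). Sod1 and Txnrd2 were singled out after their values were seen. The cytosolic Sod1 was not called, at 0.20 ± 0.24 (SE) with an adjusted p (edgeR) of 0.490. The 1 gene that fell was Txnrd2, a mitochondrial thioredoxin reductase, at -1.82 ± 0.24. For none of the 22 tested genes of these 5 lists did ISRIB M1 differ from vehicle M1 past the threshold.

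**Figure D4:**
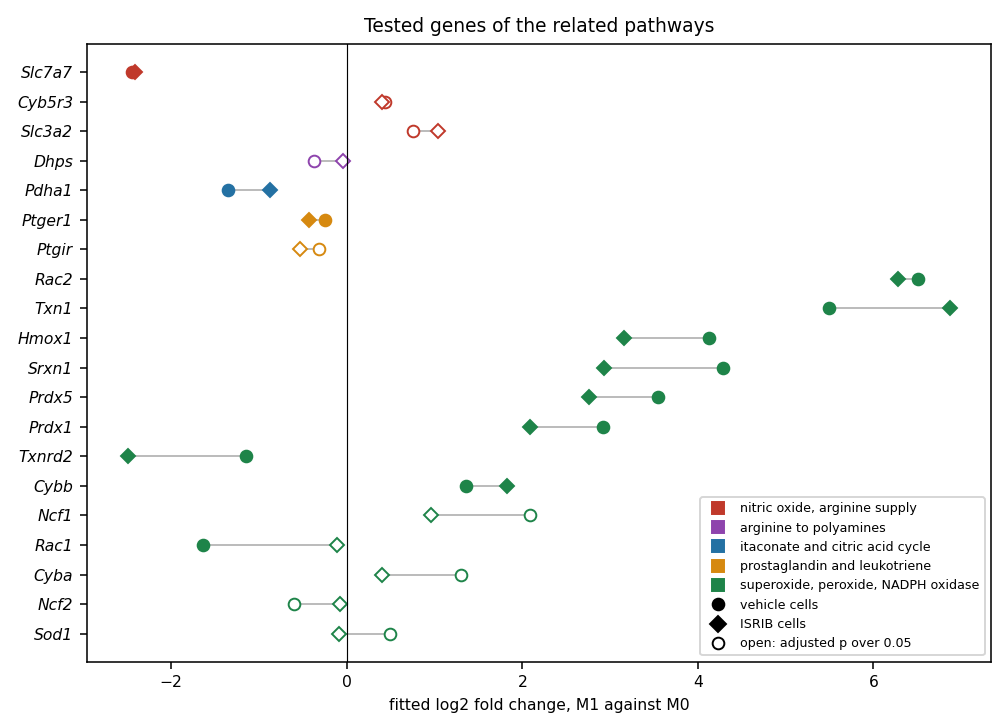
Fitted log2 fold change of M1 against M0 for 20 of the 22 tested genes of the 5 related lists, circles for vehicle and diamonds for ISRIB cells, filled where the adjusted p was at most 0.05 and coloured by list. Genes of superoxide and peroxide handling make up 13 of the 20 drawn and hold the largest increases, with Rac2 and Txn1 fitted against 0 counts in M0.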

How the data were processed

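Per the labels' protocols, polyadenylated RNA was made into strand-specific TruSeq libraries and sequenced on a NovaSeq instrument. The submitters' processing notes name FastQC, HTSeq, DESeq2 and the build mm10. The aligner, annotation, strand setting and versions are not given in the sources used here. The authors deposited whole-number counts per symbol for each of the 12 samples, and log2 values for the same symbols. Per both deposited tables, each log2 value is the log2 of the count over a size factor per library, plus 1. Groups came from the sample titles.

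The tests were run with edgeR 4.0.16 (R 4.3.3). A filterByExpr filter (minimum count 10, minimum total 15) left 2356 genes. Libraries were scaled by TMM, and 1 mean per group was fitted to all 12 samples. The 7 contrasts were tested by glmQLFTest, with p-values adjusted over all 2356 genes by Benjamini-Hochberg and a threshold of 0.05. Standard errors are implied by the test statistic. Where every library of a group was at 0, the mean of the other group was taken against 3 counts per library. Folds given as at least a value therefore leave out the spread in that mean. Where a group held 1 to 3 counts, ratios carry exact 95% counting intervals. Without molecular identifiers reads are not independent molecules, so floors and intervals describe counting error alone. Where both groups had at most 3 counts in every library, no fold is given.

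Overlaps, coordinates and exonic lengths came from GENCODE M21 (GRCm38, the assembly of mm10). On simulated counts for vehicle M1 against M0, over 2356 genes, 34% of genes changed 2-fold, 78% of those changed 4-fold and 86% of those changed 8-fold were recovered. Alternatives were DESeq2 size factors, upper-quartile scaling, DESeq2 1.42.0, limma 3.58.1 (voom, and on the deposited log2 values), other filters, the replicate block, only the compared groups, and leaving out each sample. The members and the lists were chosen with earlier results of these data known. All members were named, as were genes overlapping their exons on the opposite strand. From each list up to 4 called genes with the largest averaged change were named, and for each tested member the 3 genes most like it. Listed genes outside that rule (Dhps, Ptgir, Sod1, Txnrd2) were chosen after their values were seen. Some genes that the rule would name are not reported here.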

Additional observations from a re-analysis of the deposited data

How the results depend on the processing

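The calls of Nos2, Slc7a2, Acod1, Sod2 and Ptgs2 in M1 against M0 held in every setting that kept them. The settings reuse the same counts, so this adds no support for the rise. With only genes of at least 50 counts on average, 0 members were left, and the genes called fell to 530 in vehicle, 523 in ISRIB and 617 averaged, since fewer genes were tested. The labels do not say whether a replicate number marks a shared culture or day, although library codes run in blocks by number, so pairing was not settled. Deviations of samples with the same number had an r over 0.1 in 2 of 18 pairs, and 7 of 12 samples correlated best with their own number. With the replicate block the interaction called 3 genes, no member among them, the Arg2 call in ISRIB ended at 0.0506, and no other member call changed.

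Arg2 in vehicle turned to -0.085 without a filter on low counts, and ran from -0.19 to 0.16 with 1 library left out. Without a filter, genes called rose from 0 to 10 for ISRIB in M0, 2 for ISRIB averaged and 9 for the interaction, and DESeq2 called 3 and limma-voom 1 for ISRIB in M0. Leaving out 1 library gave 0 to 1 genes for ISRIB in M1, 0 to 4 in M0, 0 to 1 averaged and 0 to 4 for the interaction. In M1 the ISRIB difference then ran from -0.20 to 0.60 for Acod1, -0.35 to 0.45 for Sod2 and -0.51 to 0.29 for Nos2, and in M0 from -1.67 to 3.67 for Sod2 and -0.12 to 0.33 for Arg2. For Sod2 it ran from -0.82 to 1.85 averaged and -3.65 to 1.70 in the interaction. Sod2 also turned sign with limma-voom (0.39 in M0, 0.28 averaged, -0.22 in the interaction), on the deposited log2 values (0.13 in M0, 0.16 averaged) and with the block (0.0084 averaged). The causes were not tested. No scaling moved the median of all genes by over 0.1.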

Other observations

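Ptgs2os, a noncoding transcript on the opposite strand that starts 67 bases from the start of Ptgs2, runs away from it and shares no exon with it, was singled out after its values were seen. No M0 library held a count of it. Replicates 1, 2 and 3 of vehicle M1 held 4, 6 and 3 counts, and each ISRIB M1 library held 1. The vehicle and ISRIB libraries of M1 did not overlap, on 3 to 6 counts against 1. Among tested genes 11.6% had such groups, but that share was not computed for genes as rare as Ptgs2os. Those of Ptgs2 itself overlapped, at 12 counts in each vehicle M1 library and 26, 18 and 10 in ISRIB M1. Ptgs2os was below the filter on low counts and was not tested.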
